A study of Mus musculus with 8 samples.

Results

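Interferon-stimulated genes are the genes that cells switch on when interferons bind their surface receptors. The 44 genes described here were chosen by name as known targets of interferon and were found as 44 of the 43346 rows of the count table; all 44 passed the filter on low counts, as did 16111 of all rows. Hearts came from male C57BL/6 mice that received, at 7 weeks of age, 1000000 LLC1 cells (a Lewis lung carcinoma line of C57BL/6 origin) or PBS vehicle under the skin of the left flank. Ventricular RNA was taken 14 days later from 4 tumor-bearing mice (LLC1 1-2, 1-3, 1-5 and 2-2) and 4 PBS-injected mice (PBS 1-1, 1-3, 2-1 and 2-5). The tumor was a transplanted line in the flank, so that the heart was sampled at a distance from it. Each library is a separate mouse.

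Type I interferons (the alpha and beta interferons) signal through a receptor made of IFNAR1 and IFNAR2 and the kinases JAK1 and TYK2. The signal reaches a complex that contains STAT2 and IRF9 and binds the interferon-stimulated response element (ISRE). Interferon gamma, made mainly by T cells and NK cells, signals through IFNGR1 and IFNGR2 with JAK1 and JAK2, and acts on genes that carry the gamma-activated sequence (GAS). Many target genes answer to both interferons, so the members were sorted by the interferon that is their main known inducer: 21 to a type I class, 18 to an interferon gamma class and 5 to a class induced well by both. In the heart, interferon responses are known above all from viral myocarditis.

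The stretches upstream of the start site show what the classes look like in sequence. RefSeq's promoter table (GRCm38.p6, the assembly also called mm10) held 30 of the 44 members and lacked Usp18, Mx1, Mx2, Rtp4, Zbp1, Dhx58, Gbp4, Gbp6, Gbp9, Iigp1, Nlrc5, Tap2, Parp9 and Parp14. In the 250 bases before the start, on both strands, the ISRE was searched as GAAANNGAAA and the GAS as TTCNNNGAA, and matches of the patterns may overlap. Some genes have more than 1 start (35 windows for the 30 members), and a gene was counted if any of its windows matched. An ISRE was found in 16 of the 30 members (53.3%) and in 3.46% of the 27025 genes of the table, and a GAS in 10 members (33.3%) and in 8.13% of all genes. In the interferon gamma class, 8 of 12 genes held an ISRE and 7 held a GAS. In the type I class, 7 of 15 held an ISRE and 3 held a GAS. A match is a description of letters and not a measured binding site. Below, 4 members are shown 5′ to 3′ on the gene's strand, with the matched bases in capitals, as examples of a type I target with stacked ISREs (Isg15), a type I target with 2 separate ISREs (Ifit3), and both called interferon gamma targets that the table holds, 1 with GAS alone (Irf8) and 1 with ISREs alone (Irgm1). Isg15 lies at chr4:156200819-156201068 on the minus strand, Ifit3 at chr19:34583279-34583528 on the plus strand, Irf8 at chr8:120736108-120736357 on the plus strand and Irgm1 at chr11:48871421-48871670 on the minus strand. A second Irf8 window, at chr8:120738389-120738638, held neither pattern and is not shown.
Isg15: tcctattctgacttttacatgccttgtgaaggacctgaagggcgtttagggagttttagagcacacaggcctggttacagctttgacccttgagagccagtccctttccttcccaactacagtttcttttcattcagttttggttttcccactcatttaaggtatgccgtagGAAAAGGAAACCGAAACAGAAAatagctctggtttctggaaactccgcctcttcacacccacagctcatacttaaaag
Ifit3: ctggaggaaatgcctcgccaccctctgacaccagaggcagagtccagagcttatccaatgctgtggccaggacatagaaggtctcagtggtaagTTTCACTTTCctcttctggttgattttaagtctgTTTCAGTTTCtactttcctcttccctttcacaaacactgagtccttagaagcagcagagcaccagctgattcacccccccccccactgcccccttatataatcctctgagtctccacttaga
Irf8: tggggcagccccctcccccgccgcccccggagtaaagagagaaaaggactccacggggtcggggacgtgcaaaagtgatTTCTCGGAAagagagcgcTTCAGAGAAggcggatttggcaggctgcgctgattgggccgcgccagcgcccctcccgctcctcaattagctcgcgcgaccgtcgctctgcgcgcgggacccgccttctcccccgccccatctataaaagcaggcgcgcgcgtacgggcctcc
Irgm1: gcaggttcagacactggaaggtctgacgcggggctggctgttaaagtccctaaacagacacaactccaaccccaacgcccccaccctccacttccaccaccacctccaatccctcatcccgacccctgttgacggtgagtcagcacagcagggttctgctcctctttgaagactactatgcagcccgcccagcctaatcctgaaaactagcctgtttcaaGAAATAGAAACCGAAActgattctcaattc

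The libraries held 12480706 to 19747596 counts on genes. The first principal component of log2 CPM (counts per 1000000 counts, normalized with edgeR's TMM factors) held 31.5% of the variance and separated the groups, and the second (25.2%) set PBS 1-1 apart. Cardiomyocyte markers summed to 83900 to 99700 CPM in every mouse; this is the labelled tissue. Because whole tissue was sequenced, fewer cells of a type and less RNA per cell cannot be told apart.

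Few interferon-stimulated genes passed the test, while most point estimates were slightly lower in the hearts of tumor-bearing mice. The log2 fold change (LLC1 over PBS) was below 0 for 37 of the 44 members, against 52.1% of all genes tested. Its median was -0.20, a fold of 0.873, against -0.01 over all genes tested and -0.03 over the 12748 genes in the members' own range of mean CPM, of which 54.8% were below 0. The members ran from -0.68 for Irf8 to 0.27 for Gbp6, with standard errors of 0.07 to 0.46. At an FDR under 0.05 by edgeR's quasi-likelihood test (p-values adjusted by Benjamini and Hochberg over the 16111 genes), 4 members were lower in tumor-bearing mice and 0 were higher. Of all genes tested, 4.61% were lower and 4.12% were higher by the same call (8.73% in either direction). Of the 12748 genes in the members' range of mean CPM, 5.0% were lower and 2.94% higher. Whether 4 of 44, all lower, differs from these shares was not tested. At an unadjusted p under 0.05, 11 members were lower and 0 were higher, and of all genes 13.0% were lower and 12.4% higher. The 4 calls depended on single mice: with 1 mouse left out, between 0 and 7 members were called lower (0 without LLC1 1-3, PBS 1-3 or PBS 2-1, 1 without LLC1 1-5 or LLC1 2-2, 2 without PBS 2-5, and 7 without LLC1 1-2 or PBS 1-1), and 0 were called higher each time. The members' median stayed below 0 in all of these fits, from -0.27 to -0.06, the latter without PBS 2-5, and was -0.13 with a covariate for the leading digit of the replicate code.

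**Figure D1:**
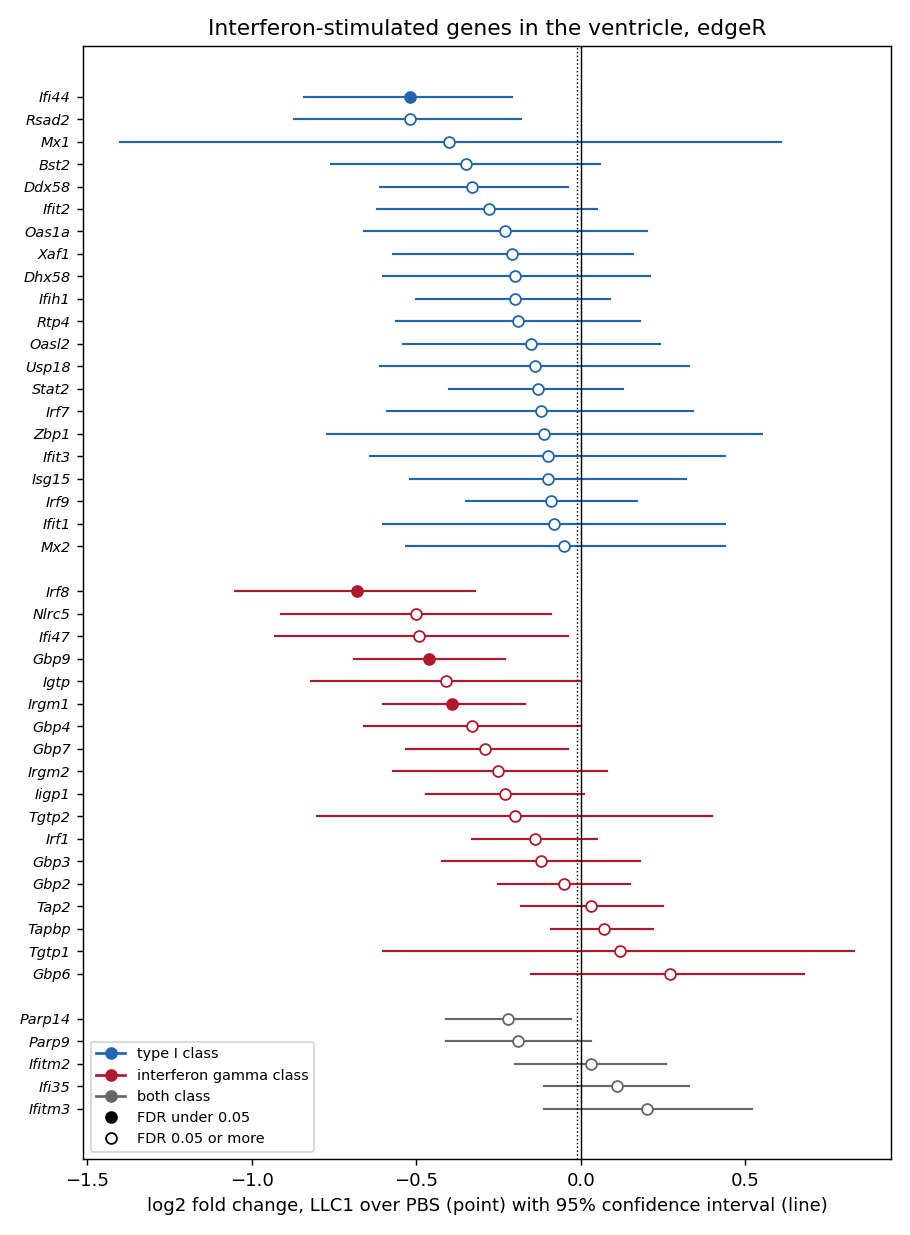
Log2 fold change of the 44 members (x axis, LLC1 over PBS, points) with 95% confidence intervals (lines), by class; filled points have an edgeR FDR under 0.05 and the dotted line is the median of all genes tested, -0.01. All 21 type I targets and 14 of 18 interferon gamma targets lie left of 0, and most intervals cross 0.

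The type I class lay below 0 in all 21 of its genes, with a median of -0.19 (fold 0.875) and a range from -0.52 (Ifi44 and Rsad2) to -0.05 (Mx2). The side of 0 depended on single mice: without LLC1 1-5, 6 of the 21 genes lay above 0 (Irf7, Isg15, Ifit1, Ifit3, Mx2 and Zbp1), and without PBS 2-5, 6 did (Irf7, Ifit1, Ifit3, Mx1, Mx2 and Zbp1), with a class median of -0.05. With the leading digit of the replicate code as a covariate the class median was -0.12. Only Ifi44 was called, and 3 genes had an unadjusted p under 0.05, all lower. Of all genes tested, 4.61% were called lower and 13.0% were lower at an unadjusted p under 0.05. With 1 mouse left out, the class had 1 call without LLC1 1-2, 2 without PBS 1-1 and 0 in each other fit. Ifi44, an interferon-induced protein of the cytoplasm with a GTP-binding motif (chr3:151730922-151749947), had 5.42, 4.94, 3.45 and 4.38 CPM in LLC1 1-2, 1-3, 1-5 and 2-2 and 6.18, 7.01, 6.41 and 6.38 CPM in PBS 1-1, 1-3, 2-1 and 2-5. Every tumor-bearing mouse lay below every PBS-injected mouse. The means were 4.55 ± 0.849 against 6.49 ± 0.360 CPM (SD, n = 4), with a log2 fold change of -0.52 ± 0.15 (SE; edgeR, adjusted p = 0.0456). Groups failed to overlap, with the tumor-bearing mice lower, in 5 of the 44 members (Irf8, Gbp9, Irgm1, Ifi44 and Parp14) and in 8.27% of all genes tested. In 0 members did all tumor-bearing mice lie higher, against 8.89% of all genes.

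Rsad2, which encodes the antiviral enzyme viperin, had 21.4, 17.8, 12.2 and 18.6 CPM in the tumor-bearing mice and 20.2, 24.9, 24.5 and 30.2 CPM in the PBS-injected mice. LLC1 1-2 lay above PBS 1-1, so the groups overlapped. Its log2 fold change of -0.52 ± 0.16 missed the threshold (edgeR, adjusted p = 0.0620), and it was called with DESeq2 and when all genes with at least 1 count were tested. Ddx58, which encodes the RNA sensor RIG-I, had 17.3, 18.8, 15.3 and 14.1 CPM against 19.2, 21.2, 16.4 and 24.9 CPM (log2 fold change -0.33 ± 0.13; edgeR, adjusted p = 0.142). The other RNA sensors, Ifih1 (MDA5) and Dhx58 (LGP2), were at -0.20 each, and neither passed the test.

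The transcription factors of the type I class had small log2 fold changes. Stat2 was at -0.13, Irf7 at -0.12 and Irf9 at -0.09 on the log2 scale, with standard errors of 0.12, 0.21 and 0.12. None of them passed the test. Isg15, a ubiquitin-like modifier, had 5.56, 5.60, 3.17 and 3.77 CPM in tumor-bearing mice and 4.98, 4.70, 4.12 and 5.49 CPM in PBS-injected mice, and its 95% interval ran from -0.52 to 0.32. The 3 Ifit genes of chromosome 19, whose proteins bind viral RNA, had a median of -0.10. Ifit1 was at -0.08 (95% interval -0.60 to 0.44), Ifit3 at -0.10 (-0.64 to 0.44) and Ifit2 at -0.28 (-0.62 to 0.05). Ifit3 is 97.8% identical to Ifit3b over 1700 bases, so reads of the pair may be split. The Isg15 and Ifit intervals leave room for a change of the class median's size as well as for no change.

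Among the remaining effectors, Mx1 had the widest interval, from -1.40 to 0.61, at a mean level of 0.975 ± 0.545 CPM in tumor-bearing mice and 1.23 ± 0.783 CPM in PBS-injected mice (SD, n = 4). C57BL/6 mice carry a defective Mx1 allele, so its transcript does not stand for a working protein in this strain. Bst2, which encodes the virus-tethering protein tetherin, was at -0.35 ± 0.19 (edgeR, adjusted p = 0.268). Oas1a (97.6% identical to Oas1g over 1861 bases), Xaf1, Rtp4, Oasl2, Usp18 and Zbp1 lay between -0.23 and -0.11, and none passed the test.

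**Figure D2:**
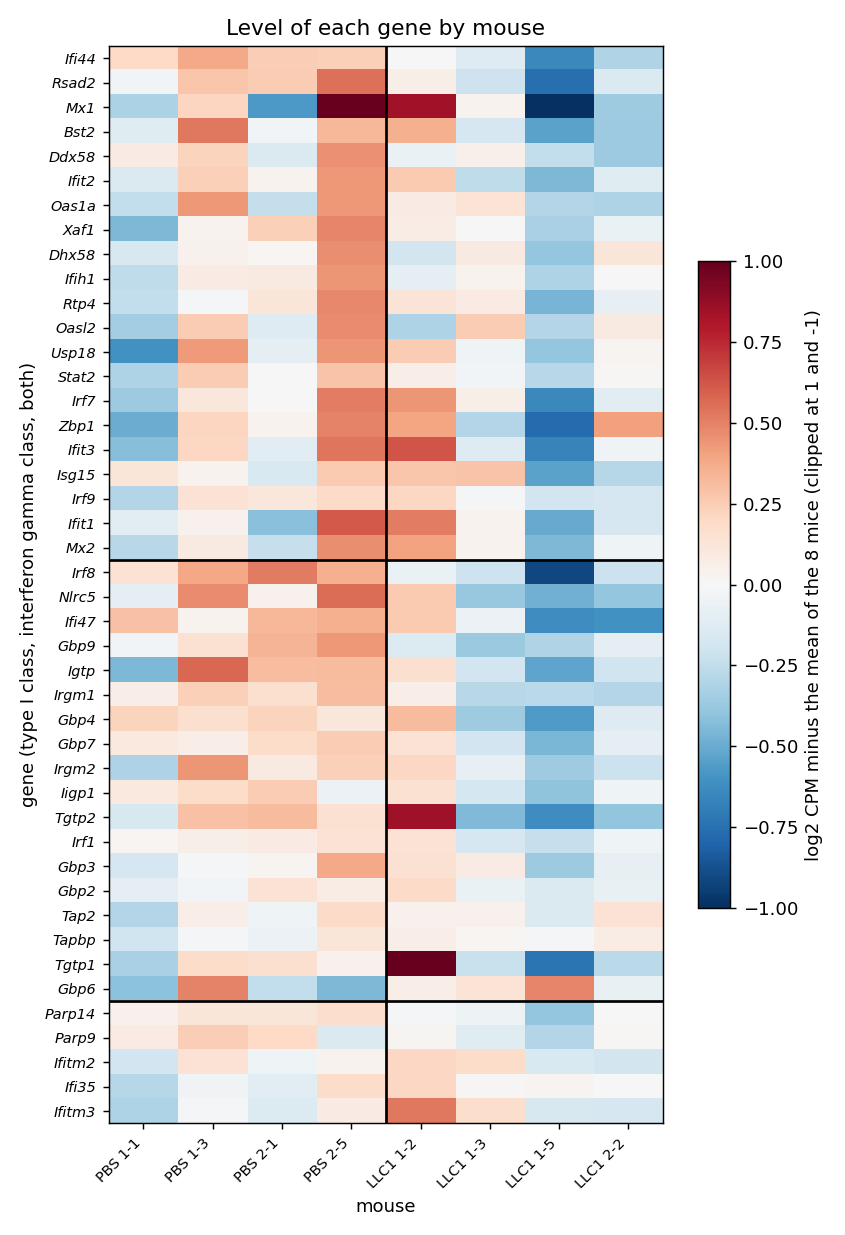
Deviation of each member's log2 CPM from its mean over the 8 mice (colour, clipped at 1 and -1), with a row per gene by class and a column per mouse. Whole columns share a colour: LLC1 1-5 is lowest of its group in 35 of 44 genes, LLC1 1-2 is highest of its group in 32, PBS 1-1 is lowest in 34 and PBS 2-5 is highest in 31.

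The interferon gamma class held 3 of the 4 called members and had a median of -0.24 (fold 0.848), with 14 genes below 0 and 4 above. Of all genes tested, 4.61% were called lower. With 1 mouse left out, the class had 0 calls without LLC1 1-3, PBS 1-3 or PBS 2-1, 1 without LLC1 1-5 or LLC1 2-2, 2 without PBS 2-5, 5 without PBS 1-1 and 6 without LLC1 1-2, and its median ran from -0.41 without LLC1 1-2 to -0.15 without LLC1 1-5. The difference between the classes was not tested. Irf8, a transcription factor of the macrophage and dendritic cell lineage (chr8:120736358-120756694), changed most. It had 6.09, 5.53, 3.39 and 5.48 CPM in tumor-bearing mice and 7.04, 8.34, 9.12 and 8.15 CPM in PBS-injected mice. No tumor-bearing mouse reached the lowest PBS-injected mouse, and LLC1 1-5 lay lowest of all. The means were 5.12 ± 1.19 and 8.16 ± 0.861 CPM (SD, n = 4), and the log2 fold change was -0.68 ± 0.17 (edgeR, adjusted p = 0.0277). Irf1, the other transcription factor of the class and an early target of interferon gamma, was at -0.14 ± 0.09 (edgeR, adjusted p = 0.333).

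The guanylate-binding proteins are large GTPases that attack the vacuoles in which intracellular pathogens live. Of the 6 members, 5 were below 0 and 1 was called lower, against 52.1% and 4.61% of all genes tested. Gbp9 (chr5:105078394-105139539) had 21.2, 18, 18.9 and 21.9 CPM in tumor-bearing mice and 22.9, 25.9, 29.4 and 31.4 CPM in PBS-injected mice. The groups did not overlap, and the highest tumor-bearing mouse lay just under the lowest PBS-injected mouse. The log2 fold change was -0.46 ± 0.11 (edgeR, adjusted p = 0.0218), the smallest adjusted p of the members. Gbp7 had 22.7, 18, 15.0 and 19.2 CPM against 22.0, 21.5, 23.3 and 24.5 CPM (log2 fold change -0.29 ± 0.11; edgeR, adjusted p = 0.132), with LLC1 1-2 among the PBS-injected mice. In GENCODE release M21, 11.3% of its exon bases are shared with another gene model.

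Members of the same gene cluster did not all lie on the same side of 0. Gbp2, Gbp3 and Gbp7 of the chromosome 3 cluster lay between -0.29 and -0.05, and on chromosome 5 Gbp4 was at -0.33 and Gbp9 at -0.46, while Gbp6 was at 0.27 ± 0.19 (edgeR, adjusted p = 0.415). With 1 mouse left out, Gbp6 ran from 0.14 without LLC1 1-5 to 0.53 without PBS 1-3, and it was not called in any of these fits. The row named Gbp6 is uncertain. In release M21 its gene ID belongs to a gene model that shares 41.6% of its exon bases with Gbp10 and 40.0% with the gene now called Gbp6, with transcripts 99.2% and 99.8% identical to theirs. Its reads could therefore have come from several near-identical genes.

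The immunity-related GTPases, which act with the guanylate-binding proteins on pathogen vacuoles, had a median of -0.25 over 7 members, of which 6 lay below 0. Irgm1 (chr11:48861968-48871683), the regulator that holds the effector GTPases inactive on the cell's own membranes, had 18.9, 14.9, 15.0 and 14.7 CPM in tumor-bearing mice and 18.9, 21.3, 20.2 and 22.3 CPM in PBS-injected mice. LLC1 1-2 and PBS 1-1 were level to 3 digits, and the other 3 tumor-bearing mice lay well below every PBS-injected mouse. The log2 fold change was -0.39 ± 0.10 (edgeR, adjusted p = 0.0319). Ifi47 at -0.49, Igtp at -0.41, Irgm2 at -0.25 and Iigp1 at -0.23 lay on the same side, with adjusted p of 0.160, 0.196, 0.328 and 0.213 (edgeR).

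Tgtp1 and Tgtp2 (named T-cell-specific GTPase 1 and 2) are near-identical genes. Their transcripts are 99.8% identical over 2811 bases, so that reads may be split between them. Tgtp1 had 18.1, 6.98, 4.92 and 6.74 CPM in tumor-bearing mice and 6.52, 9.25, 9.12 and 8.38 CPM in PBS-injected mice. Tgtp2 had 18.8, 7.70, 6.78 and 7.95 CPM against 9.35, 12.8, 13.0 and 11.6 CPM. In both genes LLC1 1-2 was the highest of the 8 mice and the other 3 tumor-bearing mice included the lowest. Their log2 fold changes were 0.12 ± 0.33 and -0.20 ± 0.28, and without LLC1 1-2 they were -0.43 and -0.65. Neither passed the test with all mice. Summed erythroid markers (hemoglobins and Alas2) were also highest in LLC1 1-2, at 5180 CPM against 1430 to 3100 CPM in the other 7 mice, and their part in these values was not tested.

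The antigen presentation members did not move together. Nlrc5, the transactivator of MHC class I genes, had 9.79, 6.26, 5.85 and 6.24 CPM in tumor-bearing mice and 7.64, 11.3, 8.42 and 12.0 CPM in PBS-injected mice (log2 fold change -0.50 ± 0.19; edgeR, adjusted p = 0.123). LLC1 1-2 again lay apart from the other 3. Tap2, a subunit of the peptide transporter, was at 0.03 (95% interval -0.18 to 0.25) and Tapbp, which encodes tapasin, at 0.07 (-0.09 to 0.22).

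**Figure D3:**
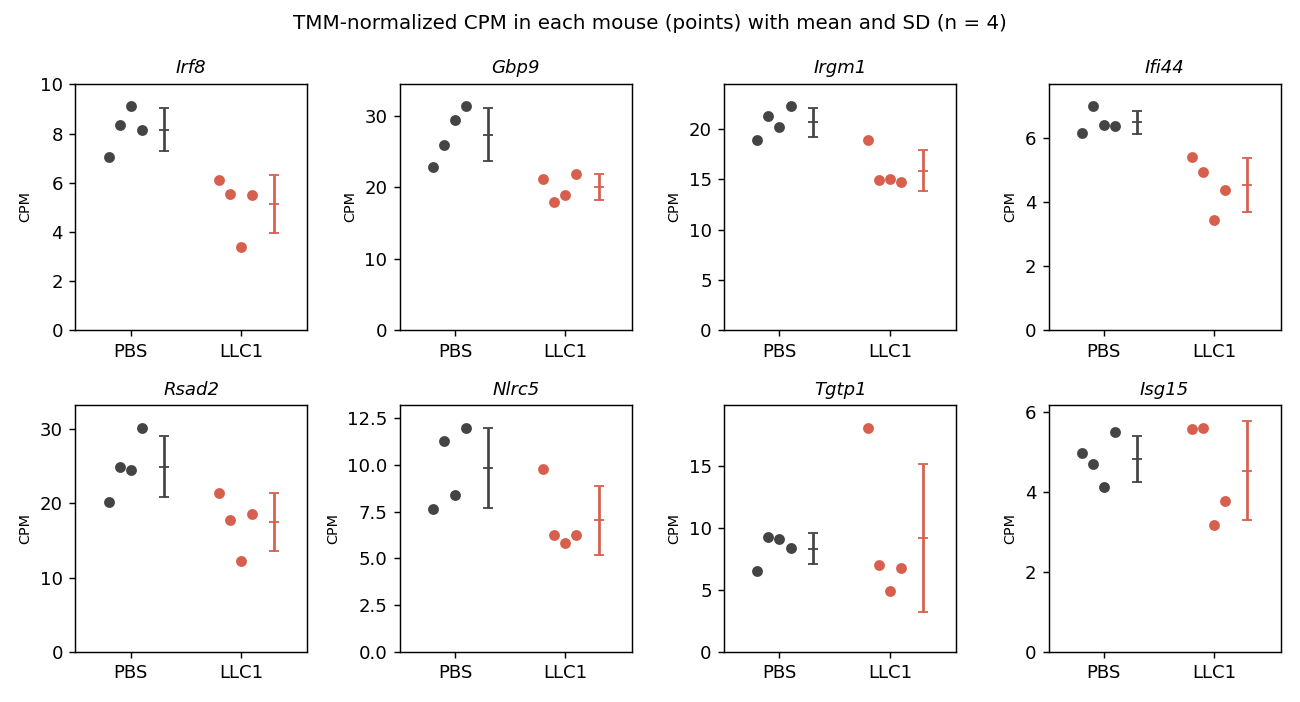
TMM-normalized CPM of 8 members (y axes start at 0) in each PBS-injected mouse (grey) and tumor-bearing mouse (red), with the mean and SD of 4 mice beside them. The groups separate in Irf8, Gbp9, Irgm1 and Ifi44 and overlap in Rsad2, Nlrc5, Tgtp1 and Isg15, with 1 tumor-bearing mouse at 18.1 CPM in Tgtp1.

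The 5 genes of the class induced by both interferons had a median of 0.03, with 2 below 0 and 3 above. Parp14, an ADP-ribosyltransferase, had 39.5, 38.7, 30.7 and 40.2 CPM in tumor-bearing mice and 41.2, 43.5, 43.5 and 45.3 CPM in PBS-injected mice. The groups did not overlap, but the log2 fold change of -0.22 ± 0.09 missed the threshold (edgeR, adjusted p = 0.135). Parp9, its partner, had 24.5, 22.1, 19.7 and 24.3 CPM against 25.5, 28.5, 27.6 and 21.8 CPM (-0.19 ± 0.10; edgeR, adjusted p = 0.264), and here PBS 2-5 lay inside the range of the tumor-bearing mice. Ifitm3, Ifi35 and Ifitm2 were at 0.20, 0.11 and 0.03. The Ifitm proteins block the entry of viruses, and Ifitm3 was the most abundant member per length, at 105 CPM per kb of gene length in tumor-bearing mice and 91.1 in PBS-injected mice. Ifitm2 followed at 66.4 and 65.0 CPM per kb, and Bst2 at 25.4 and 32.1 CPM per kb. In release M21, 40.9% of the exon bases of Ifitm2 are shared with another gene model.

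Mice differed from each other in the members as a whole by more than the groups did. For each class, the deviation of each gene's log2 CPM from its mean over the mice was averaged. The type I level was 0.20, -0.01, -0.47 and -0.11 in LLC1 1-2, 1-3, 1-5 and 2-2 and -0.22, 0.19, -0.04 and 0.46 in PBS 1-1, 1-3, 2-1 and 2-5, with means of -0.10 ± 0.28 and 0.10 ± 0.29 (SD, n = 4). The interferon gamma level was 0.22, -0.16, -0.36 and -0.16 against -0.09, 0.21, 0.16 and 0.19, with means of -0.12 ± 0.24 and 0.12 ± 0.14. The groups overlapped in both classes, with LLC1 1-2 the highest mouse of all in the interferon gamma class. The gap between the group means of the type I level was smaller than either SD. The gap of the interferon gamma level, 0.23, was larger than the SD of the PBS-injected mice. It was slightly smaller than the SD of the tumor-bearing mice. PBS 2-5 was the highest of its group in 19 of the 21 type I genes and in 9 of the 18 interferon gamma genes.

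**Figure D4:**
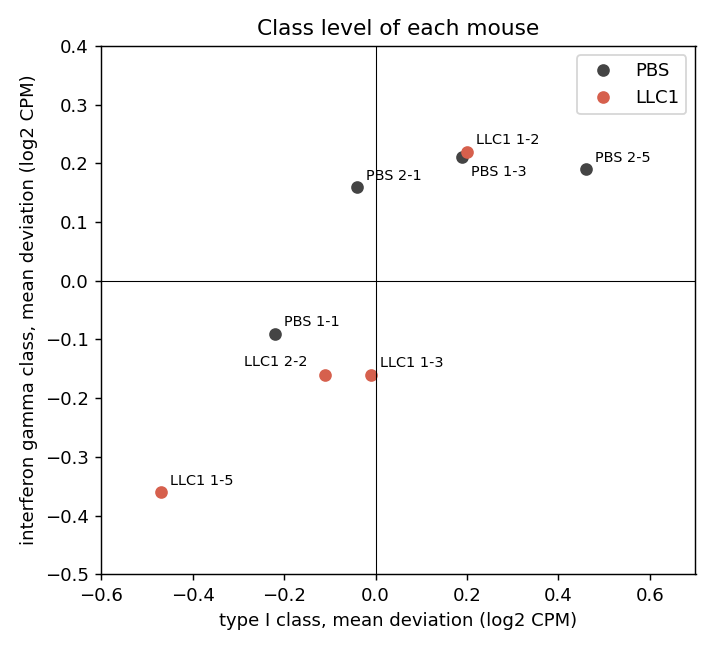
Mean deviation in log2 CPM of the type I class (x axis, 21 genes) and the interferon gamma class (y axis, 18 genes) for each mouse. LLC1 1-5 sits lowest on both axes, LLC1 1-2 sits beside PBS 1-3, and PBS 2-5 sits farthest to the right at 0.46.

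Of the interferons themselves, almost nothing was counted. The table lists 22 interferon genes, of which 5 had any count, with at most 2 counts in a mouse. Ifnb1, the first type I interferon made by most infected cells, had 0 counts in every mouse. A count of 0 allows a level of up to 3 counts, or 0.151 to 0.257 CPM by mouse, for counting error only, so lower levels were not detectable at this depth.

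The receptors were all expressed, and all 4 lay below 0. Ifnar1 was lower in tumor-bearing mice, with 27.9, 29.4, 30.2 and 29.8 CPM against 32.3, 36.3, 36.5 and 37.1 CPM (log2 fold change -0.28 ± 0.07; edgeR, adjusted p = 0.0287). No tumor-bearing mouse overlapped the PBS-injected mice, but the call held in only 2 of the 8 fits with 1 mouse left out and was lost when all genes with at least 1 count were tested (edgeR, adjusted p = 0.0577). Ifnar2, Ifngr1 and Ifngr2 were at -0.15, -0.14 and -0.17 and did not pass the test, though the groups were also apart in Ifnar2 and Ifngr2. The Janus kinases were closer to 0, with Jak1 at 0.06, Jak2 at -0.02 and Tyk2 at -0.08, each with a standard error of 0.07 to 0.10.

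Beyond the 44 members, 75 other genes of the pathway had a row and 63 were tested, of which 48 lay below 0, against 52.1% of all genes tested. By the same call 6 were lower and 2 were higher, against 4.61% and 4.12% of all genes. The 6 became 1 without LLC1 1-5 or PBS 1-3, 2 without LLC1 2-2, 3 without LLC1 1-3, 4 without LLC1 1-2 or PBS 2-1, 6 without PBS 2-5 and 12 without PBS 1-1, and the 2 became 0 to 3. Among the 63 tested genes, Cxcl9, a chemokine that draws T cells and is induced by interferon gamma (chr5:92321331-92328079), had by far the largest change. It had 2.38, 1.38, 2.24 and 3.02 CPM in tumor-bearing mice and 5.66, 8.13, 7.30 and 8.44 CPM in PBS-injected mice. Every tumor-bearing mouse was far below every PBS-injected mouse, and the log2 fold change was -1.70 ± 0.21, a fold of 0.308 (edgeR, adjusted p = 0.00105). Of the 8 called pathway genes, Cxcl9 alone was called in all 8 fits with 1 mouse left out. Psmb10 was called in 7 of them, Tlr3 in 6, B2m and Irf5 in 4, and Ifnar1, Ifi203 and Ifit1bl1 in 2.

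B2m, the light chain of MHC class I, had 203, 134, 143 and 140 CPM in tumor-bearing mice and 197, 251, 228 and 234 CPM in PBS-injected mice (log2 fold change -0.55 ± 0.12; edgeR, adjusted p = 0.0187). LLC1 1-2 lay above PBS 1-1, so the groups overlapped. Tlr3, a sensor of double-stranded RNA, had 9.39, 9.68, 9.14 and 9.76 CPM against 14.2, 13.5, 13.4 and 11.1 CPM (-0.46 ± 0.10; edgeR, adjusted p = 0.0168). Irf5, a transcription factor of toll-like receptor signaling, had 16.6, 15.3, 16 and 15.9 CPM against 19.5, 20.8, 19.3 and 19.8 CPM (-0.32 ± 0.07; edgeR, adjusted p = 0.0219). Both genes separated the groups, and the call of Irf5 was lost when all genes with at least 1 count were tested (edgeR, adjusted p = 0.0525). Ifi203, of the family of interferon-inducible DNA-binding proteins, was at -0.32 ± 0.08 (edgeR, adjusted p = 0.0382), and its call was lost with scaling by total counts only (adjusted p = 0.0542).

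The 2 pathway genes that rose were Psmb10 and Ifit1bl1. Psmb10, a catalytic subunit of the immunoproteasome, had 46.0, 41.7, 41.5 and 40.9 CPM in tumor-bearing mice and 34.1, 33.3, 35.8 and 33.5 CPM in PBS-injected mice (log2 fold change 0.31 ± 0.07; edgeR, adjusted p = 0.0143). Ifit1bl1, a relative of the Ifit genes on chromosome 19, had 4.76, 4.67, 4.65 and 4.38 CPM against 3.09, 3.01, 3.83 and 3.07 CPM (0.50 ± 0.13; edgeR, adjusted p = 0.0409). The call of Psmb10 was lost with total counts only (edgeR, adjusted p = 0.0566), and that of Ifit1bl1 with total counts only, with DESeq2 and with all genes of at least 1 count (adjusted p up to 0.0878). In both, all tumor-bearing mice lay above all PBS-injected mice, on the opposite side from most of the members. Of the other type I targets 19 of 23 lay below 0, and of the other interferon gamma targets 10 of 14.

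**Figure D5:**
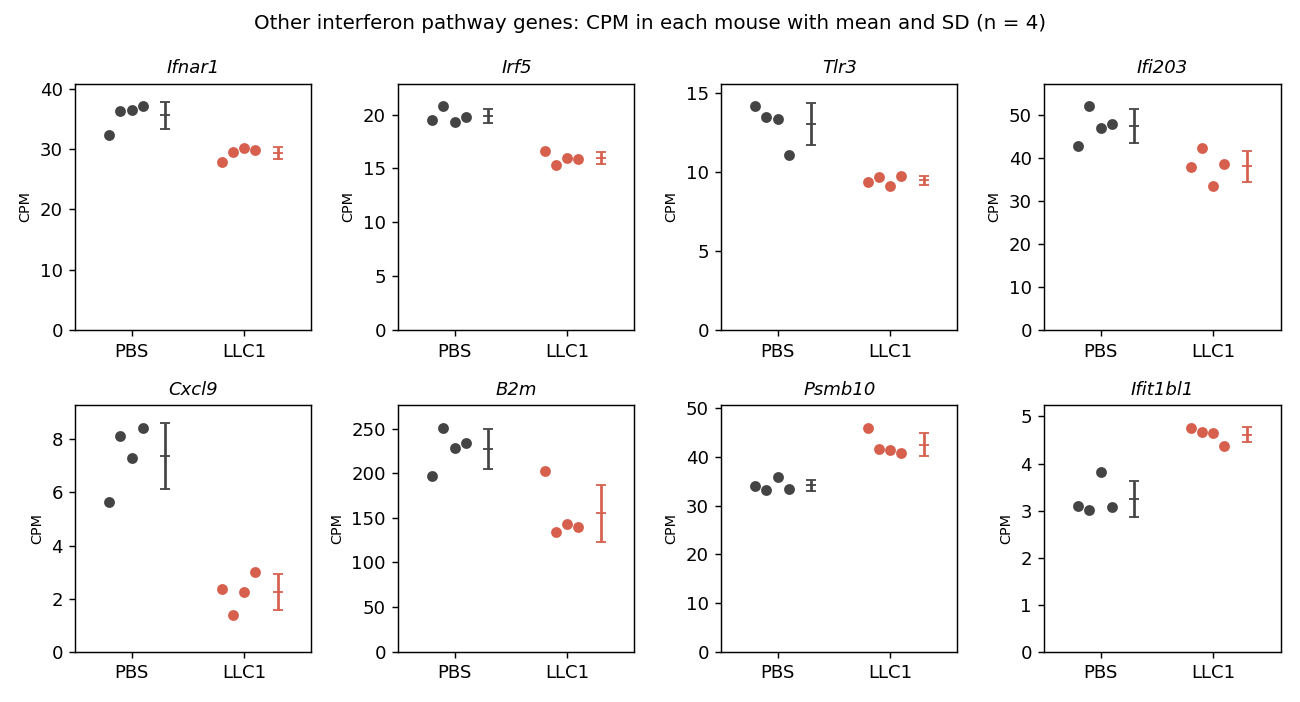
TMM-normalized CPM of the 8 pathway genes outside the member list with an edgeR FDR under 0.05 (y axes start at 0), in each PBS-injected mouse (grey) and tumor-bearing mouse (red), with the mean and SD of 4 mice. Cxcl9 falls to a fold of 0.308, Psmb10 and Ifit1bl1 are higher in all tumor-bearing mice, and the groups overlap in B2m.

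Markers of several cell types moved with the same comparison, and their part in the members' values was not tested. All 10 macrophage markers lay below 0, with a median of -0.28, and 2 of them were called lower (Mrc1 and Lyz2). Of all genes tested, 52.1% lay below 0 and 4.61% were called lower. Summed macrophage levels were 320 to 401 CPM in tumor-bearing mice and 351 to 509 CPM in PBS-injected mice. Dendritic cell markers, a list that also holds the member Bst2, summed to 119 to 130 against 141 to 177 CPM, but Tcf4 alone, the only one of 3 tested markers called lower, held 88.4 to 108 and 117 to 143 CPM of this. Without Tcf4 the sums overlapped, at 19.4 to 30.9 against 23.9 to 37.1 CPM, and 4 of the 7 markers were under 1 CPM in every mouse. T and NK cell markers were low, with 9 of 10 under 1 CPM in every mouse and sums of 1.51 to 2.12 against 1.63 to 3.07 CPM. Cd4, the most abundant, was the only 1 of them that passed the filter on low counts. Without Cd4 the sums did not overlap, at 0.755 to 1.04 against 1.12 to 1.89 CPM, but they rest on a few counts per gene. Of these 9 genes, Gzma and Cd3d had the higher mean in tumor-bearing mice and the others the lower. Groups failed to overlap in this direction in 8.27% of all genes tested. B cell markers summed to 1.06 to 1.85 against 1.47 to 3.35 CPM.

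Neutrophil markers went the other way, at 3.57 to 6.72 CPM in tumor-bearing mice and 1.24 to 3.26 CPM in PBS-injected mice. Of them, 4 of 7 were under 1 CPM in every mouse, and Ly6g had 1 count in LLC1 1-2 and 0 elsewhere. S100a8 and S100a9 were called higher, at no more than 22 counts in a mouse. Csf3r, the most abundant, was not called (edgeR, adjusted p = 0.389). Without Csf3r the sums did not overlap either, at 2.05 to 3.29 against 0.413 to 1.63 CPM. Endothelial markers summed to 1010 to 1140 against 1090 to 1390 CPM, with Kdr and Emcn called lower and Flt1 called higher. Fibroblast markers summed to 729 to 807 against 782 to 982 CPM, and 3 of 6 were called lower. By the same call, 4.61% of all genes tested were lower and 4.12% higher. Cardiomyocyte markers summed to 93500 to 99700 against 83900 to 86400 CPM, of which Myh6, the only one called (higher), held 53500 to 56500 and 44700 to 47600 CPM. Of the 7 markers, 5 lay above 0 and 2 below, and without Myh6 the sums overlapped, at 39600 to 43700 against 38000 to 40800 CPM. In none of these lists was a gene at 0 in every mouse.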

How the data were processed

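RNA was measured in the ventricles of 8 male C57BL/6 mice, 4 with LLC1 tumors and 4 injected with PBS, grouped by the labelled treatment. The deposited values are raw counts of reads per gene, which the authors made from 150-base paired reads aligned to mm10. The submitters' processing notes name CASAVA, STAR and featureCounts, with no role or order. The gene annotation and the strand setting are not given in the sources used here, so a gene and an overlapping partner may share reads. Library totals were 12480706 to 19747596 counts, and the median count of a member in a mouse was 254 (lowest 8).

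The members, classes and lists were chosen with earlier results of these data known. Counts were compared with edgeR 4.0.16 in R 4.3.3 (filterByExpr, TMM factors, quasi-likelihood F-test, Benjamini-Hochberg adjustment over 16111 genes, FDR under 0.05 as a call), with no covariate. The standard error is the absolute log2 fold change divided by the square root of F. With 4 mice against 4, exact permutation of the mice (70 arrangements) cannot go below p = 0.0286. Classes were described by counts and medians, with no test. Values in each mouse are given for called members, for the 2 other members of each class with the smallest p, and for the near-identical pair Tgtp1 and Tgtp2; Isg15 was added after its values were seen. Of the other pathway genes, those called, the receptors and the Janus kinases are named, and Ifnb1 and the marker genes come from lists. Marker levels are sums of CPM. Shared exons and similar transcripts (at least 97% identity over at least 150 bases, BLAST 2.17.0) were taken from GENCODE M21. Of the pathway genes listed, 1 had no row, and the value of 1 is not reported here, while counts of genes include it. The steps were tested on simulated data.

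Alternatives were DESeq2 1.42.0, upper-quartile scaling, limma-voom (limma 3.58.1), scaling by the totals alone, a filter that kept genes with any count, a filter of 10 counts in every mouse, a covariate for the leading digit of the replicate code, robust empirical Bayes, each mouse left out in turn, and 1 fit without a pair of mice that was added after the data were seen. Other steps used Python 3.11.15 with pandas 2.3.3, numpy 2.4.6, scipy 1.17.1 and matplotlib 3.10.9.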

Additional observations from a re-analysis of the deposited data

Results flagged for a closer look

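In 7 of the 88 groups of 4 values (44 members in both groups of mice), the highest or lowest mouse lay far from the rest by Dixon's ratio of its gap to the whole range, above the 95% critical value for 4 values. Chance flags about 1 group in 20, and genes share the same mice.

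LLC1 1-2 was the far mouse in 5 of them, each time as the highest tumor-bearing mouse. Irgm1 was at 18.9 CPM there against 15.0 CPM in the next mouse (ratio 0.928), Ifi35 at 23.1 against 20.4 CPM (0.924), Tgtp2 at 18.8 against 7.95 CPM (0.903), Nlrc5 at 9.79 against 6.26 CPM (0.898) and Tgtp1 at 18.1 against 6.98 CPM (0.843). Parp14 was lowest in LLC1 1-5, at 30.7 against 38.7 CPM (ratio 0.848). Gbp6 was highest in PBS 1-3, at 50.1 against 30.0 CPM (ratio 0.839).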

How the results depend on the processing

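With all mice kept, the 8 alternatives called 4 or 5 members lower and 0 higher; Irf8, Gbp9, Irgm1 and Ifi44 were called in each, and the type I class had 2 calls with DESeq2 and with all genes of at least 1 count. Total counts only called 225 of all genes higher and 0 pathway genes higher; DESeq2 and all genes of at least 1 count each called 1 pathway gene higher. Pathway genes called lower were 4 with all genes of at least 1 count (Ifnar1 and Irf5 were lost), 5 with total counts only (Ifi203 was lost) and 6 in the other alternatives that kept all mice.

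With 1 mouse left out, the calls ran from 0 to 7 for members, 0 to 2 for the type I class, 0 to 6 for the interferon gamma class, 1 to 12 and 0 to 3 for pathway genes lower and higher, and 330 to 1041 and 212 to 908 for all genes lower and higher. Medians ran from -0.27 to -0.06 for all members, -0.29 to -0.05 for type I, -0.41 to -0.15 for interferon gamma and -0.04 to 0.09 for both. With the covariate, the medians of all members and of type I were -0.13 and -0.12. Of 8 such fits, Irf8 and Gbp9 were called in 4, Irgm1 and Ifi44 in 2.

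A fit without LLC1 1-2 and PBS 1-1 together was added after the data were seen. It called 14 members lower (4 type I, 10 interferon gamma) and 12 and 1 pathway genes lower and higher, with an interferon gamma median of -0.49. These mice were the highest tumor-bearing and the lowest PBS-injected mouse in most members, so leaving them out widens the gap by construction and its count supports nothing.

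Signs turned for Zbp1 at 0.01 and Ifitm2 at -0.01 (covariate), Tgtp1 at -0.09 (limma-voom), Tap2 and Ifitm2 at -0.03 (total counts only), and, without the pair of mice, Tgtp1 at -0.52, Tap2 at -0.06, Ifi35 at -0.01, Ifitm2 at -0.09 and Ifitm3 at -0.02. With 1 mouse left out, the log2 fold change ran from -0.31 to 0.04 for Irf7, -0.22 to 0.04 for Isg15, -0.29 to 0.16 for Ifit1, -0.36 to 0.08 for Ifit3, -0.80 to 0.17 for Mx1, -0.20 to 0.13 for Mx2, -0.29 to 0.09 for Zbp1, -0.43 to 0.33 for Tgtp1, -0.05 to 0.10 for Tap2, -0.04 to 0.09 for Ifitm2, -0.05 to 0.04 for Jak2, 0.04 to 0.19 for Ifi35 and 0.04 to 0.29 for Ifitm3. Without the pair of mice, Ifit1 was at -0.35, Mx2 at -0.28 and Zbp1 at -0.37, and the Mx1 log2 fold change was -0.95. The causes were not tested. No paired analysis was possible because the groups share only 1 replicate code.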
